A study of Mus musculus with 622 samples.

Results

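The cells described here are 15 macrophage-like cells found in a collection of 622 islet cells profiled one by one, from C57BL/6 mice of wild-type genotype, set against 299 beta cells of the same collection. Both sides were chosen by measured values, in units of RPKM (reads per kilobase of a gene's length, relative to all mapped reads of the cell). The selection took in the 593 cells with 1000 or more genes reaching 1 RPKM. A cell was macrophage-like when Tyrobp and Lyz2 were both at 100 RPKM or more. It was a beta cell when both were below 1 RPKM and Ins1 plus Ins2 made up at least 99% of the summed RPKM of 5 hormone genes (Ins1, Ins2, Gcg, Sst and Ppy). The 314 cells of both sides carry the same genotype and no treatment in the labels, which give no age and name neither animals nor capture chips. All cells therefore count as 1 sample, no test over replicates exists, and every difference below is a description of these cells. Capture was on the Fluidigm C1, which isolates single cells in a microfluidic circuit, and 1 full-length cDNA library was made per cell. Cells are called by the number in their label.

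Macrophages are resident phagocytes of most tissues. Inside the islet they lie between endocrine cells and capillaries, take up material released around them, and hold major histocompatibility complex (MHC) class II molecules that present peptides to T cells. Beta cells make insulin, package it in dense granules and release it when glucose rises.

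The macrophage-like cells made up 15 of 593 cells, or 2.53% (exact Clopper-Pearson 95% interval 1.42 to 4.14, which covers counting error only). Tyrobp, the adaptor protein of activating myeloid receptors, had a median of 2598 RPKM among them (lowest 166, highest 12994). Lyz2, the lysozyme of myeloid cells, had a median of 4051 (198 to 39500). These values selected the cells and are no finding. Cell 6 was the cell just inside the thresholds, with Tyrobp at 166 and Lyz2 at 198, while the lowest of the other 14 were 791 and 934. Just outside were cell 472 (Tyrobp 156, Lyz2 at 0), cell 421 (18.6 and 158) and cell 453 (16.0 and 90.3). On the beta side the lowest insulin share of the 5 hormones was 99.0%, and the highest share in a cell left out on this ground was 98.9%. By the smaller of both genes, cell 6 stood at 166 and the nearest cell left out, cell 421, at 18.6, while the insulin threshold had cells close on either side.

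Cell 6 stood apart from the other 14. It listed C1qb, H2-Aa and Ctss at 0, along with Csf1r, Adgre1, Fcer1g and Cd74, and only 5 of 18 further macrophage identity genes reached 1 RPKM there. The other 14 cells had 12 to 18 of the 18. Those 18 genes summed to 71.9 RPKM in cell 6 and to between 1909 and 10026 in the others. Its Ins2 was 404930 RPKM, inside the range of the beta cells. Values are therefore given with and without cell 6 where they rest on it.

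Depth was similar on both sides. The macrophage-like cells had a median of 975582 mapped reads (471366 to 2504752) and 5092 genes at 1 RPKM or more, and the beta cells 1134518 reads (135830 to 4351306) and 5315 genes. With every cell thinned to 250000 reads, the median number of genes was 5272 and 5461 (3 beta cells were too shallow for this). The share of RPKM on mitochondrial genes was 9.91% and 11.2%. What differed was the room that hormones take in a library. For this total and for every rescaling below, hormones were the 5 hormone genes with the islet peptide genes Iapp and Pyy. Outside them and the mitochondrial genes a median of 397790 RPKM remained in macrophage-like cells and 266704 in beta cells. The columns of the table come in 2 number formats, 359 at full precision and 263 rounded to 4 decimals, which the labels do not explain. They held 6 and 9 macrophage-like cells, or 1.76% (0.65 to 3.8) and 3.56% (1.64 to 6.65) of the cells passing in each. No 2 columns of the 314 cells were identical.

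The selection came with 5 marker genes, and the 3 that it did not use were all higher in the macrophage-like cells. They were named together with Tyrobp and Lyz2, with earlier results of these data known. Their values are therefore a description and no independent support for the label. C1qb, a chain of the C1q molecule that opens the classical complement pathway, read 85.3, 3122, 1247, 3169, 694, 848 and 5185 RPKM in the 7 cells with the least insulin and 751, 1334, 1359, 877, 1366, 0, 1643 and 2513 in the other 8. Its highest value in any beta cell was 3.44, so 14 of 15 cells lay above all 299 beta cells. H2-Aa, the alpha chain of the class II molecule I-A, read 193, 3704, 180, 112, 31.6, 1133 and 3199 in the first 7 cells and 18249, 793, 825, 746, 1292, 0, 1806 and 1631 in the others. The highest beta cell had 13.8. Ctss, cathepsin S, which trims the invariant chain off class II molecules, read 3800, 5339, 1239, 262, 2817, 2041 and 8135, then 3327, 1897, 3775, 2418, 1979, 0, 2301 and 2982, against at most 201 in a beta cell. In all 3 genes the single macrophage-like cell at 0 was cell 6. By these 3 markers 14 cells lay above all beta cells and cell 6 did not, though the rule includes it. The 14 cells were not alike in other macrophage genes. Cell 494 listed Cd68, Adgre1, Itgam, Mrc1, Mertk and Trem2 at 0, and whether it is another kind of cell was not tested.

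The wider identity list went the same way. All 18 of its genes were past the fold used here, a log2 ratio of means of at least 2 (4-fold, computed on the mean RPKM plus 1), at a list median of 6.75. Over all genes compared, 8.33% were higher by that measure and 7.9% were lower, at a median of -0.14. Since the whole contrast was defined by myeloid genes, these shares are printed as the background and nothing is read from them. Cd68, a lysosomal glycoprotein, averaged 709 RPKM and was at 1 RPKM or more in 14 cells. Csf1r, the receptor of the growth factor macrophages depend on, averaged 69.9 (14 cells), and Adgre1, which encodes the F4/80 antigen, 65.0 (12 cells). Cx3cr1, the fractalkine receptor, averaged 90.0 (12 cells), and Itgax, which encodes CD11c, 71.7 (13 cells, 42.4 without cell 423). Itgam (CD11b) averaged 13.8 in 9 cells and Mrc1, the mannose receptor, 21.2 in 6 (11.0 without cell 608). Itgax was thus more widely detected than Itgam or Mrc1. Trem2, a lipid-sensing receptor that signals through Tyrobp, averaged 150 (13 cells), and Ms4a7, a tetraspan membrane protein of macrophages, 579 (15 cells, with 6.35 in cell 6).

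**Figure D1:**
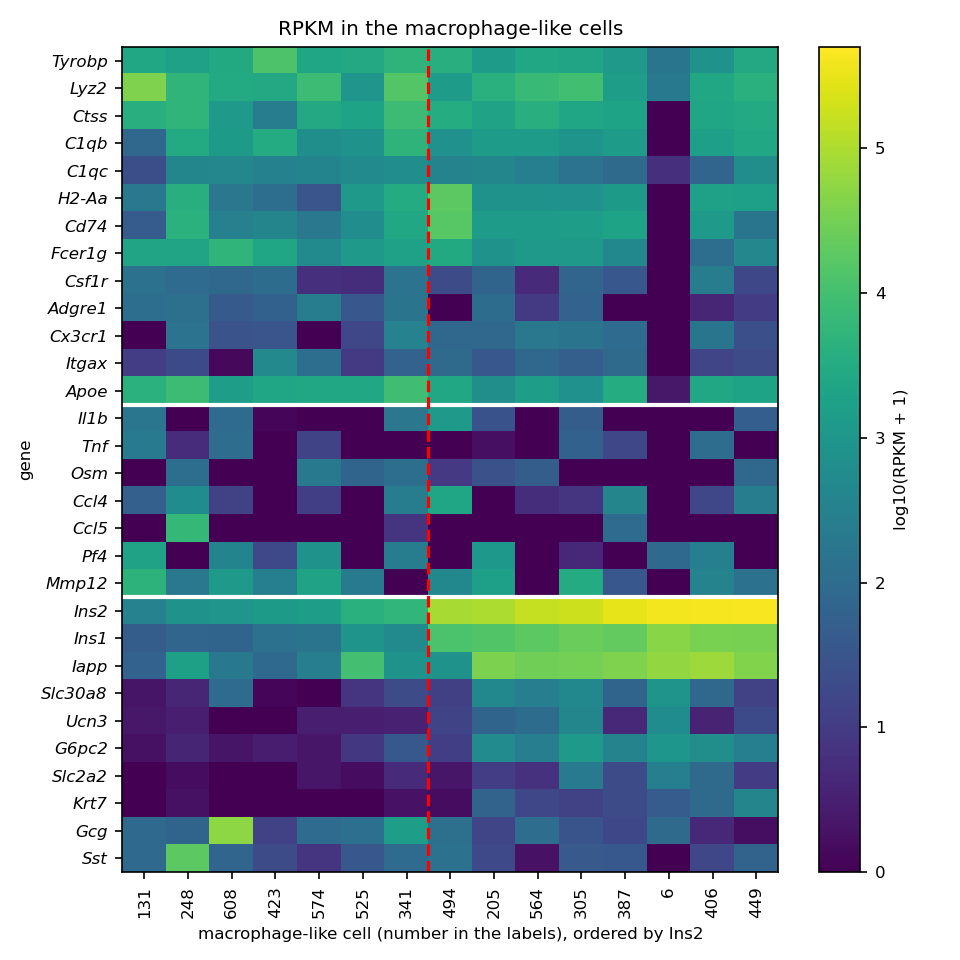
RPKM of 30 genes (rows) in each of the 15 macrophage-like cells (columns, ordered by Ins2), as log10(RPKM + 1) in colour. White lines part macrophage, secreted-factor and endocrine genes, and the dashed red line marks 10000 RPKM of Ins2. Most macrophage genes are bright in every column but cell 6, though Adgre1 is also at 0 in cells 494 and 387 and Cx3cr1 in cells 131 and 574. Secreted factors are patchy, and Ins2 jumps from 5578 to 88532 RPKM across the dashed line.

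Across all genes the comparison took in 11709 genes with a mean of at least 1 RPKM on either side, reached in at least 10% of that side's cells. Of these, 975 were higher and 925 lower in macrophage-like cells by 4-fold or more. The even split between directions depends on scale. When every cell was rescaled to its RPKM outside hormones and mitochondrial genes, 649 genes were higher and 1301 lower, the share of higher among those past the fold going from 51.3% to 33.3% and the median of all genes from -0.14 to -0.59. Without cell 6 the counts were 1021 and 1133.

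**Figure D2:**
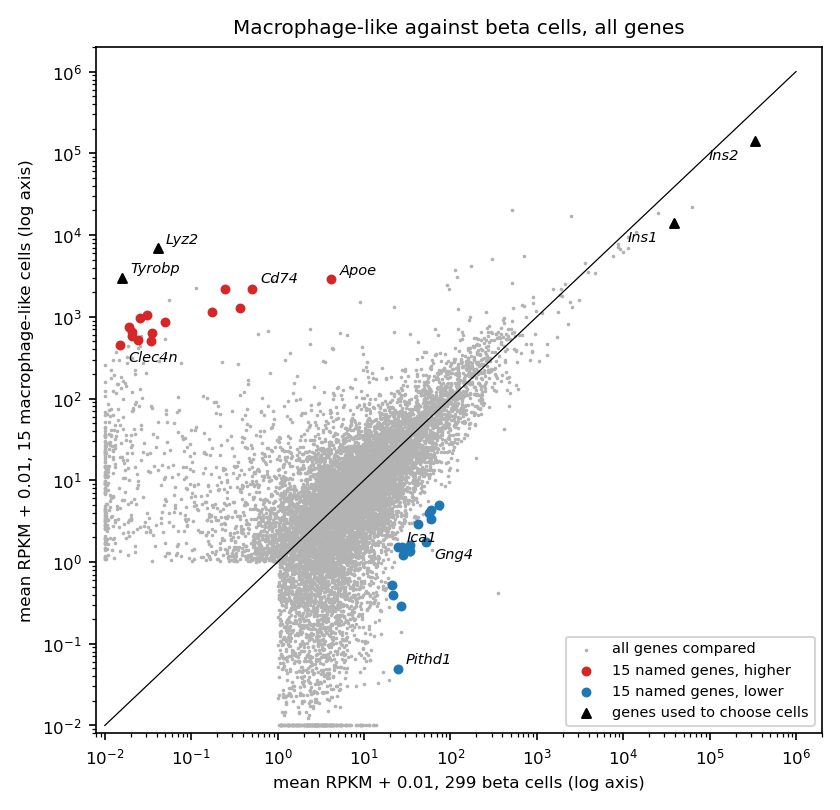
Mean RPKM + 0.01 of each compared gene in 15 macrophage-like cells (vertical, log axis) against 299 beta cells (horizontal, log axis), with the line of equality. Red points are the 15 named genes with the highest ratios, blue the 15 with the lowest, and black triangles genes that chose the cells. The red genes lie near or below 1 RPKM on the beta axis except Apoe at 4.19, while the blue genes stay below 75 RPKM in beta cells.

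The 15 genes with the highest ratios outside the marker lists ranged from 10.79 to 8.81. Wfdc17, a secreted protein with a whey acidic protein domain found in macrophages, averaged 2180 RPKM against 0.236 in beta cells (10.79 on the log2 scale). Rgs1, which dampens chemokine receptor signalling, averaged 1058 against 0.0206 (10.02). Lgals3, the galactoside-binding lectin galectin-3, averaged 1268 against 0.36 (9.87). Each of the 3 was at 1 RPKM or more in 14 of 15 cells and in under 2% of beta cells. Apoe, the lipid-carrying apolipoprotein E, had the highest mean of the 15 named genes at 2912 against 4.19 (9.13), was present in all 15 cells, and reached 844 in 1 beta cell, with 21 beta cells at 1 RPKM or more. Cd52, a short glycosylated surface protein of leukocytes, averaged 578 (9.16). Bcl2a1b, of a family of survival proteins, averaged 742 (9.53), and Lilrb4a and Lilr4b, inhibitory receptors, 637 (9.28) and 507 (8.96). These last 3 genes have near-identical copies among which reads may be split, so their single values are uncertain. Cd300c2, a lipid-binding receptor that overlaps Cd300ld4, averaged 516 (8.99), with 3295 in cell 608 and a mean of 317 without it. Clec4n, which encodes dectin-2, averaged 449 (8.81) but was found in 8 cells, and its mean was 177 without cell 131.

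Genes lower in macrophage-like cells had smaller ratios, and the 15 lowest ranged from -4.61 to -3.36. Pithd1, which encodes a PITH domain protein, averaged 0.0397 against 24.4 RPKM (-4.61), with 0 of 15 macrophage-like and 156 of 299 beta cells at 1 RPKM or more. Gng4, a G protein gamma subunit, averaged 1.74 against 52.8 (-4.30; 4 against 240 cells). Hid1, which acts in sorting to dense granules, averaged 1.36 against 33.8 (-3.88), and Ica1, the islet autoantigen ICA69, 1.53 against 24.9 (-3.36). Cldn7, a tight junction protein, averaged 1.22 against 28.1 (-3.71), and Tob1, an antiproliferative protein, 4.29 against 59.8 (-3.52). Serpina10, a serine protease inhibitor, averaged 3.34 against 58.9 (-3.79) and Dapl1, a death-associated protein-like gene, 4.93 against 74.4 (-3.67). Leaving out the highest macrophage-like cell lowered several of these means further, to 0.791 for Dapl1 and 1.49 for Tob1 (both without cell 305), 1.71 for Serpina10 and 0.758 for Ica1 (without cell 406), 0.761 for Gng4 (without cell 6) and 0.856 for Hid1 (without cell 608). The other named genes were Cpsf3, Nap1l5 and Ndufs1, each overlapping another gene (Itgb1bp1, Herc3 and Ino80dos), and Ak1, Gsdma, Isca1 and Tmem218. Genes that chose the cells and marker genes, Ins1, Ins2 and Iapp among them, were left out of this list. Ins2 averaged 140431 RPKM in the macrophage-like cells against 331841 in beta cells, and Ins1 13941 against 38471. Their log2 ratios were smaller than those of the 15 genes, at -1.48 for Ins2 without cell 449 and -1.74 for Ins1 without cell 6.

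Antigen presentation through MHC class II had the highest median of the 27 functional lists. Of 15 listed genes, 9 were abundant enough to compare, 8 were higher by 4-fold or more and none lower, at a median of 6.95. Most of these genes were near 0 in beta cells and entered the comparison through the macrophage-like side alone. The counts, medians and ranks of this and the other macrophage lists are therefore a description. Cd74, the invariant chain that guards the peptide groove of new class II molecules, averaged 2200 RPKM against 0.491 (10.53). H2-Ab1, the I-A beta chain, averaged 1131 (9.92), and H2-Eb1, the I-E beta chain, 866.5 (9.71, 13 cells). H2-DMb1, a chain of the peptide exchange factor, was listed at 0 in all beta cells and averaged 122. Cell 494 held the highest values, with H2-Aa at 18249, Cd74 at 16666, H2-Ab1 at 10232 and H2-Eb1 at 6673. Without that cell the means were 1118 for H2-Aa, 1167 for Cd74, 481 for H2-Ab1 and 452 for H2-Eb1. Ciita, the coactivator that drives class II transcription, was listed above 0 in cell 494 only, at 111 RPKM. Cd86, a costimulatory ligand, averaged 120 and 61.6 without cell 494. H2-Oa, H2-Ob and H2-Eb2 were listed at 0 in every macrophage-like and beta cell.

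The promoters of H2-Aa, H2-Eb1 and Ctss are shown because these genes carry the contrast and because class II promoters share the Y box, a reverse CCAAT element bound by NF-Y. They come from RefSeq (GRCm38.p6) and run from 150 bases before the annotated start through the first 20 bases of the transcript, 5′ to 3′ on the gene strand. Capitals mark the Y box letters searched, CTGATTGG, in H2-Aa and H2-Eb1, and in Ctss the reverse complement of GAGGAAGT, an ETS site of the type PU.1 binds.
H2-Aa, chr17:34287804-34287973, minus strand: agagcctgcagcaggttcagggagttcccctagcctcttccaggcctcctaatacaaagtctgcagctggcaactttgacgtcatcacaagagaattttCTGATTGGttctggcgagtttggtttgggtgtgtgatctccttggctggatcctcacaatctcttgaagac
H2-Eb1, chr17:34305717-34305886, plus strand: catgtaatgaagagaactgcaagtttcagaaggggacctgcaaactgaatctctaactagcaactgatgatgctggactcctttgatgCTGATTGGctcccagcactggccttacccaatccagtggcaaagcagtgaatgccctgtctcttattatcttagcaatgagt
Ctss, chr3:95526636-95526805, plus strand: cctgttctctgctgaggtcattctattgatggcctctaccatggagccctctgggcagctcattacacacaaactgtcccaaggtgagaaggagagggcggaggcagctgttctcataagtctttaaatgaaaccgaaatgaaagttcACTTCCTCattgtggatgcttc
The Y box begins at position -51 from the start in H2-Aa and at -62 in H2-Eb1. Searched on both strands of 300-base windows, its 8 letters were found in 4 of 10 class II list genes with an entry (also H2-Oa at -46 and H2-Eb2 at -103), against 4.1% of 32851 windows of all genes. H2-Oa and H2-Eb2 thus hold the letters and were listed at 0 here. GAGGAAGT was found in 1 of 14 identity genes with an entry (C1qc, at -195) and in 3.2% of all windows. The searched letters do not overlap each other, and a match is a description of the window, not a bound site.

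MHC class I did not part the cells in the same way. Of 14 genes compared 3 were higher and none lower, at a median of 0.48, which was -0.07 after rescaling. B2m, the light chain shared by class I molecules, averaged 3076 RPKM against 119 (4.68). Psmb8, an immunoproteasome subunit, averaged 86.6 against 16.1 (2.36). Tap1, a peptide transporter, averaged 12.8 but rested on cell 574, with a mean of 0.186 without it. Pdia3, which helps load class I, was at 212.5 against 274 (-0.37).

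Fc receptors and the kinases and adaptors of ITAM signalling were higher for 17 of 19 genes compared, and none was lower (median 4.91). Fcgr3, a low-affinity immunoglobulin G receptor, averaged 297 and stayed below 1 RPKM in all beta cells. Fcer1g, the signalling gamma chain of Fc receptors, averaged 1505 against 8.88 (7.25), but 66 beta cells had 1 RPKM or more and 1 reached 1067. Sirpa, an inhibitory receptor found in 196 beta cells, was at 65.5 against 28.2 (1.19). In the complement list 10 of 13 were higher and 1 lower, and without cell 6 10 of 12 were higher and none lower. C1qc averaged 316 RPKM in all 15 cells, and C3ar1, the receptor for complement fragment C3a, 200 in 12 cells. Cfb, factor B of the alternative pathway, was the gene on the lower side, at 3.80 against 18.6 RPKM (-2.03), and its beta cell mean came from 16 cells, 1 of them at 2968. The macrophage-like mean of Cfb was 0.239 without cell 131, and without cell 6 the gene was too rarely detected to compare.

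Lysosomal genes were higher for the proteases more than for the membrane and pump. Of 24 hydrolases compared 15 were higher (median 2.75), and of 17 membrane and proton pump genes 5 were higher (median 1.14), with none lower in either list. Ctsh, an aminopeptidase cathepsin, averaged 362 against 1.4 RPKM (7.24), and Ctsc, which activates granule proteases, 204.5 against 0.817 (6.82). Ctsl, cathepsin L, differed little, at 140 against 125 (0.16), as did Ppt1, a palmitoyl-protein thioesterase, at 49.0 against 35.3 (0.46). Laptm5, a lysosomal protein of blood cells, averaged 534 against 0.0393 (9.01) and was present in all 15 cells. Slc11a1, a metal transporter of the phagosome, averaged 136 (7.09). The pump subunit Atp6v1b2 was at 109 against 98.2 (0.14). Without cell 6, 7 membrane and pump genes were higher. After rescaling, the counts were 12 hydrolases higher, and 4 membrane genes higher with 1 lower.

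Receptors for uptake were higher for 11 of 13 genes compared. Cd36, a fatty acid and oxidized lipid receptor, averaged 644 RPKM (median 476.5, 12 cells) and did not reach 1 RPKM in a beta cell. Msr1, the class A scavenger receptor, averaged 192 (13 cells), and Clec7a, the beta-glucan receptor dectin-1, 160 (13 cells) with beta cells listed at 0. Itgav, an integrin chain that beta cells also express, was at 19.7 against 15.4 (0.34). The uptake receptor genes Timd4, Marco and Cd163, named after their values were seen, were listed at 0 in all 15 cells. Lipid handling followed with 13 of 17 higher and none lower.

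Iron handling and the oxidative burst included very abundant transcripts. Fth1, the ferritin heavy chain, averaged 20356 RPKM against 514 (5.30), and Ftl1, the light chain, 17339 against 2489 (2.80). Both ferritin genes have processed copies in the genome that may take or lend reads. Blvrb, biliverdin reductase B, averaged 288 against 3.32 (6.07), while Tfrc, the transferrin receptor, was at 8.69 against 18.7 (-1.02). Of 9 iron genes 6 were higher and none lower. Of 9 oxidative burst genes 8 were higher, led by Cyba and Cybb, the membrane subunits of the NADPH oxidase, at 677 (8.58) and 269 (7.99). Cyba had 2.32 RPKM in cell 6 and at most 142 in a beta cell. Prdx1, a peroxide-removing enzyme, averaged 5100 against 306 (4.05). Nos2, the inducible nitric oxide synthase, was too low to compare.

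Sensors and signalling of the Toll-like receptor family were higher for 12 of 19 genes compared (median 2.51, and 0.24 with medians over cells). Ly86, the MD-1 protein that pairs with RP105, averaged 436 RPKM (8.76, 13 cells), and Cd14, the lipopolysaccharide co-receptor, 207 (7.67, 10 cells). Tlr13, a receptor for bacterial RNA, averaged 41.4 (5.26), and 14.7 without cell 525. The kinase Irak1 was at 89.6 against 51.1 (0.80) and the adaptor Myd88 at 20.9 against 11.0 (0.87). The mean of Myd88 was 8.39, below that of beta cells, when its highest cell, cell 6, was left out.

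Secreted factors varied from cell to cell. Of 16 cytokine and growth factor genes compared 8 were higher and 1 lower (median 2.41), and the 12 chemokine genes abundant enough to compare, of 20 listed, were higher (median 6.09). Genes at or near 0 in beta cells, as most of these were, entered the comparison through the macrophage-like side alone, so the counts are a description. With medians over cells in place of means, both list medians were 0.0. Il1b, which encodes interleukin-1 beta, read 170, 0, 96.5, 0.187, 0, 0 and 184 RPKM in the 7 cells with the least insulin and 1201, 26.4, 0, 46.7, 0, 0, 0 and 50.6 in the other 8. It was thus at 1 RPKM or more in 7 cells, and its mean of 118 was 41.0 without cell 494. Tnf, tumour necrosis factor, was at 1 RPKM or more in 7 cells, with 213 in cell 131, 105 in cell 608 and 108 in cell 406, and was listed at 0 in all beta cells. Osm, oncostatin M, was found in 8 cells, up to 202, and was also at 0 in beta cells. Cells with Osm and cells with Il1b were partly different ones. Hbegf, a ligand of the EGF receptor, was the growth factor on the lower side, at 0.0204 against 6.38 (-2.85). Vegfa, the vascular growth factor that beta cells make, was at 8.91 against 29.4 (-1.62).

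Among chemokines Ccl5 had the highest mean, 418 RPKM, but it was 6161 in cell 248, 98.0 in cell 387, 6.59 in cell 341 and 0 elsewhere. Without cell 248 its mean was 7.47. Pf4, platelet factor 4, which resident macrophages also make, was at 1 RPKM or more in 9 cells and highest in cell 131 at 1905, with a mean of 325 and of 212 without that cell. Ccl4, a C-C chemokine that attracts leukocytes, was found in 11 cells, with 2243 in cell 494, and had a mean of 256 and of 114 without it. Cxcl1, a neutrophil attractant, averaged 97.6, of which cell 608 with 1419 gave nearly all (3.18 without it). The means of Ccl5 and Cxcl1 therefore describe single cells. Among matrix and support factors 9 of 10 were higher. Mmp12, the macrophage metalloelastase, averaged 962 (9.89, 12 cells, 684 without cell 131) and Igf1, insulin-like growth factor 1, 33.4 in 6 cells with beta cells at 0.

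Transcription factors of macrophages were higher for 11 of 18 genes compared (median 2.75, 0.55 with medians over cells in place of means and 1.03 with a pseudocount of 10 RPKM). Irf8, which specifies the mononuclear phagocyte lineage, averaged 81.6 RPKM in 13 cells (6.11). Maf, a factor of mature macrophages, averaged 47.5 in 7 cells (25.7 without cell 525). Irf1, an interferon-inducible factor, was at 5.12 against 19.8 (-1.76). Spi1, which encodes PU.1 and is named after its value was seen, was low throughout, at 1 RPKM or more in 6 cells and at most 20.7. Receptors for cytokines and chemokines were higher for 15 of 20 genes, led by Cx3cr1, Csf1r and Ccr1. Leukocyte actin and migration genes were higher for 14 of 18, led by Lcp1, plastin-2, at 150 against 0.449 (6.70).

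**Figure D3:**
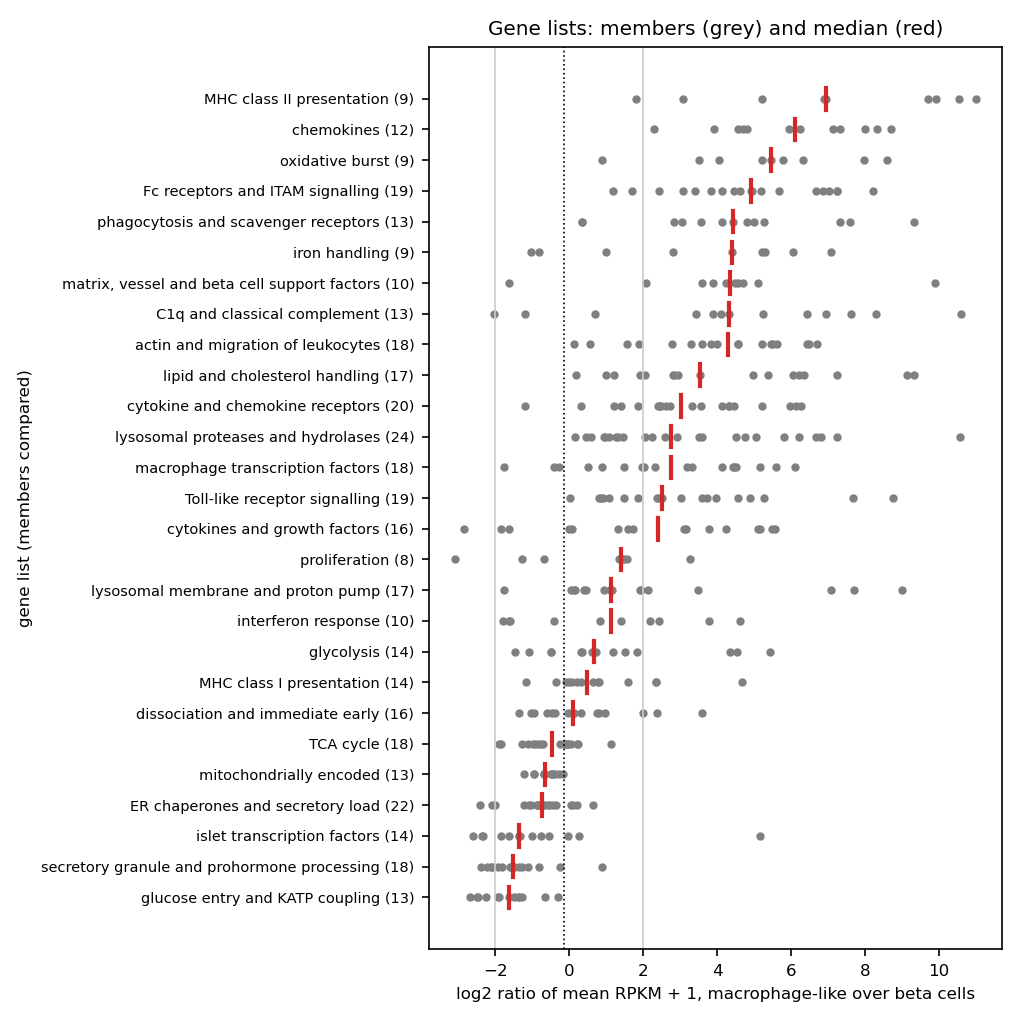
Log2 ratio of mean RPKM + 1, macrophage-like over beta cells (horizontal), for the members of 27 functional lists (rows). Grey points are genes, red marks the list medians, the dotted line is the median of all genes at -0.14 and grey lines mark -2 and 2. Medians range from 6.95 for MHC class II to -1.61 for glucose entry and KATP coupling.

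Interferon response genes were higher for 4 of 10 compared, at a median of 1.12 (0.0 with medians over cells in place of means), and 9 of the 19 listed were too low to compare. Usp18, an interferon-induced protease, was at 6.72 against 22.8 RPKM (-1.62, and -3.22 without cell 205). Energy metabolism and early stress genes had medians nearer to that of all genes. Glycolysis had a median of 0.68 (0.02 after rescaling), with 3 of 14 higher. Those 3 were Hk2 at 42.7 against 0.0119 (5.43), Hk3 at 19.3 against 0.00253 (4.34), both hexokinases, and Ldha, lactate dehydrogenase A, at 134 against 4.84 (4.53). Ldha is known as a gene that beta cells keep silent. None of 18 TCA cycle genes was past the fold (median -0.48), nor any of 13 mitochondrially encoded genes (median -0.64). Immediate early genes had a median of 0.10 and -0.47 after rescaling. Fos, a marker of recent stimulation, was at 213 against 438.5 (-1.04). Of 17 proliferation genes 9, among them Mki67 and Top2a, were too low to compare.

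Beta cell lists had mostly negative ratios, in 17 of 18 secretory granule genes, all 13 of glucose entry and KATP coupling and 12 of 14 islet transcription factors. Fewer were past the fold, beside 7.9% lower over all genes compared, and these counts moved with cell 6. The beta side was chosen by insulin, so this is a description. Of 18 secretory granule genes 4 were lower and none higher (median -1.52), with 5 lower without cell 6. Of 13 genes of glucose entry and KATP coupling 4 were lower (median -1.61), with 7 lower without cell 6 and 7 after rescaling. Pcsk1, a prohormone convertase, was at 29.9 against 133.5 RPKM (-2.12, -2.99 without cell 6), and Ptprn, the granule protein IA-2, at 13.3 against 74.1 (-2.40, -3.47 without cell 6). Trpm5, a cation channel, was at 2.83 against 20.4 (-2.48, -3.85 without cell 6), and Ffar1, the fatty acid receptor, was listed at 0 in all 15 cells and averaged 5.45 in beta cells. Of 14 islet transcription factors 3 were lower and 1 higher, with 5 lower and 1 higher without cell 6. The 3 lower ones were Isl1 (-2.60), Pdx1 (-2.35) and Rfx6 (-2.32), factors that keep endocrine cells in their fate. Isl1 was at 10.2 against 66.7 RPKM, Pdx1 at 1.53 against 11.9 and Rfx6 at 5.18 against 29.9. Without cell 205, the highest for all 3, their means were 5.99, 0.200 and 0.867. Xbp1, which expands the secretory apparatus, was at 16.8 against 93.7 (-2.41), and Hyou1, a chaperone, at 3.89 against 19.6 (-2.08, and -2.53 without cell 305). Those 2 were the lower ones among 22 genes of the endoplasmic reticulum.

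Of each list of markers of other, not endocrine, cell types at most 2 genes reached 1 RPKM in any of the 15 cells. None of 9 monocyte genes was abundant enough to compare, and their sum was 103 RPKM in cell 248, nearly all of it Ccr2, 4.6 in cell 608 and below 1 in the others. None of the T and NK cell, mast cell, endothelial or acinar genes could be compared either. Mast cell genes were at 0 in all 15 cells and endothelial genes reached 29.2 in cell 423. Of 8 neutrophil genes only Csf3r was compared. At least 1 gene of that list reached 1 RPKM in 6 cells, and the list summed to 173 in cell 341 and 114 in cell 131. Of 8 conventional dendritic cell genes only Batf3 was, with 78.6 in cell 608 and 53.5 in cell 205. B cell genes summed to at most 189 (cell 406) and stellate or fibroblast genes to 365 in cell 608 and 122 in cell 205. Ductal genes reached 1 RPKM in 9 cells, in 8 of them Spp1, which macrophages also make, and summed to 884 in cell 131 and 828 in cell 574, all of it Spp1, and glial genes to at most 47.8 (cell 608). The sum of the macrophage identity genes exceeded each of these sums in all 15 cells. Their part in the results was not tested.

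Within the macrophage-like cells, Ins2 lay in a low and a high set on either side of the 10000 RPKM split given with the selection. The 7 Ins2-poor cells had 337, 824, 932, 1275, 1508, 4112 and 5578 RPKM, in cells 131, 248, 608, 423, 574, 525 and 341. The 8 Ins2-rich cells had 88532, 100971, 158043, 181025, 301764, 404930, 418866 and 437770, in cells 494, 205, 564, 305, 387, 6, 406 and 449. No cell lay between 5578 and 88532. The Ins2-rich values sat inside the beta cell range of 15230 to 884124 (median 320659). The Ins2-poor values lay within the range of 47 glucagon-led cells without Tyrobp and Lyz2 (82.9 to 199882, quartiles 581 and 24096, median 1364). That range also took in the Ins2-rich values from 88532 to 181025, so it does not part the sets. Both number formats held both kinds of cell, 3 and 4 Ins2-poor and 3 and 5 Ins2-rich. Read depth had medians of 717920 in Ins2-poor and 1177202 in Ins2-rich cells, and thinned gene counts of 5272 and 5443.

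The means of other beta cell genes followed Ins2, though not every cell did. Iapp, amylin, which is released with insulin, averaged 1836 RPKM in Ins2-poor cells, 39225 in Ins2-rich cells and was 2.90% and 62.0% of the beta cell mean. G6pc2, the islet glucose-6-phosphatase, averaged 7.41 and 535, or 0.691% and 49.9% of the beta cell mean. Slc30a8, the granule zinc transporter, averaged 18.5 and 285 (3.82% and 59.0%), Slc2a2, the glucose transporter GLUT2, 0.910 and 79.9 (0.551% and 48.4%), and Ucn3, urocortin 3, 1.38 and 151 (0.286% and 31.3%). Cell 6 had the highest Slc30a8, Slc2a2 and Ucn3 of the 15. Without it the Ins2-rich cells stood at 72.6% of the beta cell mean for Ins2, 57.3% for Iapp, 44.0% for G6pc2, 40.6% for Slc30a8, 30.2% for Slc2a2 and 18.3% for Ucn3. The share thus differed between genes of the same cells. Of the Ins2-poor means, Iapp rested on cell 525 (528 without it), G6pc2 and Slc2a2 on cell 341 (2.50 and 0.380 without it) and Slc30a8 on cell 608 (5.09 without it). Cell 494 had Ins2 at 88532 but Iapp at 784 (0.885% of its Ins2, against a beta cell median of 19.6%), G6pc2 at 10.4 and Krt7 at 0.547. In the Ins2-poor cells 525 and 248, Iapp was above Ins2, at 235% and 208% of it. Ucn3 ran from 2.44 (cell 406) to 591 (cell 6) in Ins2-rich cells, against at most 2.37 (cell 341) in Ins2-poor cells. Slc30a8 overlapped between the sets, at 98.7 in Ins2-poor cell 608 and 12.6 in Ins2-rich cell 449.

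**Figure D4:**
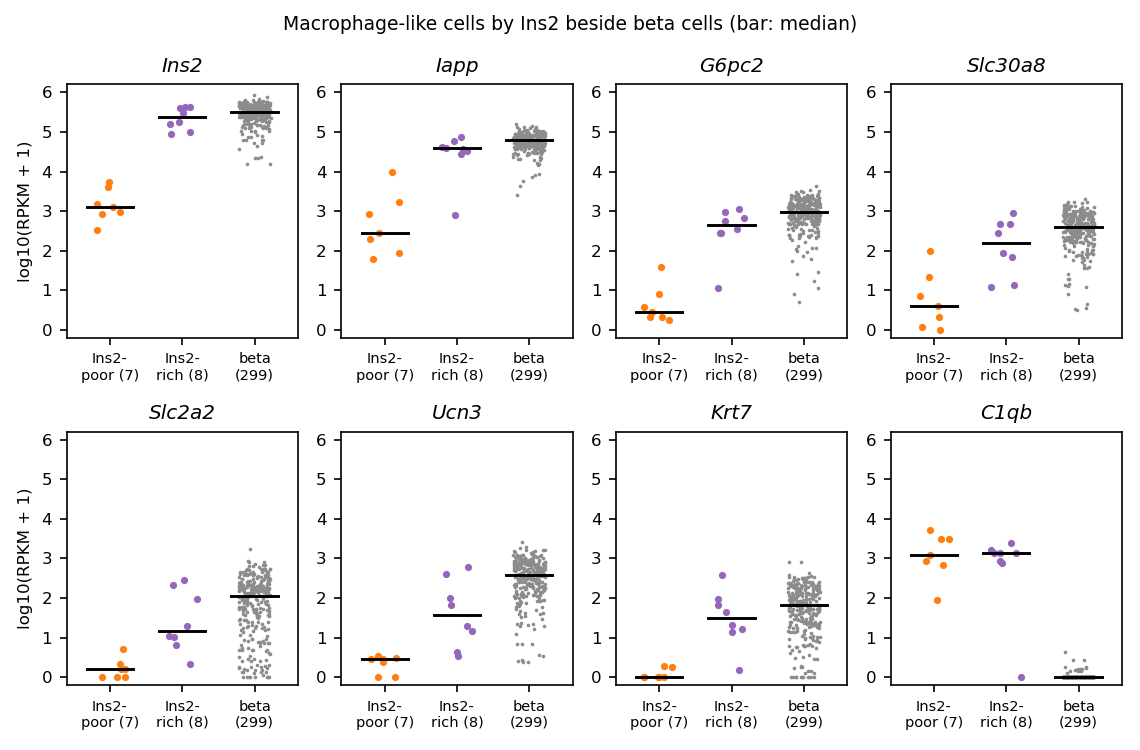
Log10(RPKM + 1) of 8 genes in 7 Ins2-poor and 8 Ins2-rich macrophage-like cells and 299 beta cells. Points are cells and bars medians. By their medians, beta cell genes are low in the Ins2-poor cells and nearer to the beta cells in the Ins2-rich ones. C1qb is at similar levels in both sets, with cell 6 at 0.

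C1qb, Ctss and H2-Aa overlapped between the sets. Some macrophage lists had higher sums in the Ins2-poor cells, and MHC class II had the higher median in the Ins2-rich cells. C1qb ran from 85.3 to 5185 RPKM in Ins2-poor cells and, without cell 6, from 751 to 2513 in Ins2-rich cells. Ctss ran from 262 to 8135 and from 1897 to 3775. H2-Aa ran from 31.6 to 3704 and from 746 to 18249. Summed over the lipid and cholesterol list, the median was 7865 RPKM in Ins2-poor and 3673 in Ins2-rich cells (3798 without cell 6), and 6 of 7 Ins2-poor cells were above every Ins2-rich cell. The iron handling sum had medians of 42743 and 22085 (23056 without cell 6), again with 6 of 7 above every Ins2-rich cell. The exception in both lists was cell 608. Most of the iron sum was ferritin, with Fth1 at 55519.5 and Ftl1 at 49923 of 106740 in cell 423. The processed copies of the ferritin genes thus bear on it. In the lipid sum Apoe gave 8902 of 12267 in cell 341 but 2358 of 7724 in cell 423. The phagocytosis sum had medians of 2083 and 631 (744 without cell 6), with 5 of 7 above. The identity list differed less, at 5188 and 4241. The MHC class II sum went the other way, with medians of 1562 in Ins2-poor and 3283.5 in Ins2-rich cells (3401 without cell 6). So did the sum of C1qb, H2-Aa and Ctss, at 4022 and 5193.5 (5750 without cell 6). The median RPKM outside hormones and mitochondrial genes was 463781 in Ins2-poor and 369111 in Ins2-rich cells, and its part in these sums was not tested.

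Over all genes 11332 could be compared between the Ins2-poor and the Ins2-rich cells, of which 12.5% were higher and 16.7% lower in the Ins2-poor cells by 4-fold or more. Each mean here rests on 7 or 8 single cells. Krt7, a keratin of simple epithelia, averaged 0.243 in Ins2-poor and 79.2 RPKM in Ins2-rich cells (-6.01), and its Ins2-rich mean was 80.9% of the beta cell mean, but 36.3% without cell 449. Prss53, a serine protease that overlaps Zfp646, averaged 0.219 and 109 (-6.49, 85.4% of the beta mean and 52.3% without cell 387). Papss2, a sulphate donor synthase that overlaps Gm36492, averaged 0.948 and 125 (-6.02, 65.6% of the beta mean and 41.6% without cell 387). Adh1, an alcohol dehydrogenase, averaged 0.516 and 155.5 (-6.69), and 85.4 in the Ins2-rich cells without cell 6. Fam151a, which overlaps Acot11 and Mroh7, averaged 0.294 and 135 (-6.72). For Lmna, which encodes lamin A and C, and Ift27, of the intraflagellar transport complex, the Ins2-rich mean rested on cell 494, with 759 and 669 RPKM there. Lmna averaged 107.5 with and 14.4 without that cell, and Ift27 86.3 and 2.99. Zbtb11, a zinc finger gene that overlaps Rpl24, averaged 69.8 with and 11.5 without it.

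On the other side the ratios were a little smaller and rested on few cells each. Tmem273, a transmembrane protein, averaged 57.4 RPKM in Ins2-poor cells against 0.0438 (5.81), with 206 in cell 341 and 185 in cell 248 (32.6 without cell 341). Clcn7, the lysosomal chloride transporter, averaged 68.6 against 1.05 (5.09), with 208 in cell 574 and 156 in cell 248 (45.3 without cell 574). Rab20, a GTPase of phagosome maturation, averaged 243 against 3.98 (5.61), with 1087 in cell 574 and a mean of 102 without it. Tubg1, a gamma tubulin, averaged 135 against 2.77 (5.18), with 864 in cell 423 and a mean of 13.7 without it. Crlf3, a cytokine receptor-like factor, averaged 141 against 3.03 (5.14), with 788 in cell 525 and a mean of 32.7 without it. Without cells 248 and 608, described next, the counts were 1277 higher and 2375 lower of 11008 genes, and without cell 6 they were 1467 and 1757 of 11150.

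Of the 7 Ins2-poor cells 2 carried another islet hormone in amount. Cell 248 had Sst, somatostatin, at 17961 RPKM and Pyy, peptide YY, at 11499. Cell 608 had Gcg, glucagon, at 54509 and Pyy at 3130. C1qb was at 3122 in cell 248 and 1247 in cell 608, and Ctss at 5339 and 1239. Of the 18 identity genes 17 reached 1 RPKM in cell 248 and 15 in cell 608, with sums of 6561 and 10026. In cell 608, however, Ptprc was at 0, Cd14 at 0.93, Itgax at 0.35 and B2m at 81.2 RPKM. In the other 5 Ins2-poor cells Gcg reached 1485 (cell 341) and Sst 96.5. Whether a hormone transcript came from inside the cell, from material taken up, or from a second cell in the capture site was not tested. No doublet caller was run on these cells.

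Single cells differed in which macrophage genes they held, and the following genes were chosen after their values were seen. Cell 131 had the highest Lyz2 (39500 RPKM) with low C1qb (85.3), and Fpr1, a formyl peptide receptor, at 3289, Cxcl3, a chemokine, at 2394, Clec4e, which encodes mincle, at 1599 and Acod1, which makes itaconate, at 419. None of these 4 was above 0 in any other macrophage-like cell. Cell 494, with the highest class II values, had Siglech, a sialic acid-binding lectin of plasmacytoid dendritic cells and microglia, at 1081, Ighm, the immunoglobulin mu chain, at 119 and Adgre1 at 0. Cell 341 had Gpr34, a lysophospholipid receptor, at 699 and P2ry12, a nucleotide receptor, at 142. Cell 574 had Fabp5, a fatty acid binding protein, at 5777, and Spp1, osteopontin, at 828, close to the 884 of cell 131. Cell 608 had the matrix protein gene Mgp at 9871. Cell 248 was the cell with Ccl5 at 6161 and Ccr2 at 103.

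Among genes averaging at least 100 RPKM and found in at least 50% of the 15 cells, the largest coefficient of variation was 3.13, for Mrpl53, a mitochondrial ribosome protein, with 1867 RPKM in cell 423 and a median of 6.65. Pyy followed at 3.05 and Chp1, a calcium-binding protein, at 3.04. Mrps18b and Mrpl13, also of the mitochondrial ribosome, and Hmox2, the constitutive heme oxygenase, were among the first 10, each led by 1 cell. Spp1 was among them as well, at 2.59. Single high cells were thus found for general cell genes as well as for secreted ones.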

How the data were processed

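Islet cells were sequenced singly after capture on a C1 Integrated Fluidic Circuit, with cDNA made by the SMARTer Ultra Low RNA kit and Nextera XT libraries, per the labels' protocols. The authors deposited RPKM values in 1 table of 44448 Entrez gene IDs and 622 cells. Their processing notes name CASAVA 1.8.2, FastQC and GRCm38 (mm10), per the submitters' processing notes. The names of the aligner, read counter and gene models were not given in the sources used here. The kits do not mark strand, so overlapping genes share reads. Symbols came from RefSeq (39725 IDs matched).

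RPKM was used as deposited. Mapped reads were recovered from its steps (100.0% of values under 100 reads whole within 0.05) for depth and thinning only. Means of both sides were compared as a log2 ratio with 1 RPKM added, which understates low genes. Named genes outside the marker lists had a mean of at least 20 RPKM in at least 50% of the higher side's cells, and were the 15 highest and 15 lowest ratios, or 10 and 10 for the Ins2 split. From each functional list up to 3 members from either end with a mean of at least 5 RPKM could be named. The members, the 44 lists and the rules were chosen with earlier results of these data known. The steps were checked on simulated data. Doublets were not called, and cells with several hormones were kept. Alternatives changed the pseudocount, the scale, the thresholds, the filters, the number format of the columns and the mean, and left out single cells. Python 3.11.15, numpy 2.4.6, pandas 2.3.3, scipy 1.17.1 and matplotlib 3.10.9 were used.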

Additional observations from a re-analysis of the deposited data

How the results depend on the processing

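The 15 genes named as higher were past the fold under every alternative run. Counts over all genes moved with the settings. Genes higher and lower in macrophage-like cells numbered 975 and 925, and with a pseudocount of 10 RPKM 312 and 25, with medians in place of means 621 and 578. The lower count was 2000 with a pseudocount of 0.1, 1688 in the rounded columns alone and 2397 with Ins2-poor cells alone. The higher count was 649 after rescaling outside hormones and mitochondrial genes. With the pseudocount of 10, 6 of the 15 genes named as lower were past the fold. Of the functional lists, 18 had a median at least 1 above that of all genes (11 with medians) and 3 at least 1 below (1 with a pseudocount of 10, 0 with Ins2-rich cells alone). For Ins2-poor against Ins2-rich cells, 1414 genes were higher and 1895 lower, with a pseudocount of 10 they were 260 and 222, with 0.1 RPKM 2197 and 3059, with medians 573 and 1006, and after rescaling 916 were higher. The full-precision columns held 6 and the rounded columns 9 of the 15 macrophage-like cells. The causes were not tested, beyond what each setting leaves out by construction. Of the values under alternatives, 338 of 420 for single genes and 296 of 351 for lists lay within 1 log2 unit of the main value, and none changed direction past the fold. No paired analysis was possible because all cells form 1 group and the labels give no shared replicate numbers. RPKM of a few reads and dropout in single cells limit every value from a few cells.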

Other observations

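Low levels of both selecting genes were found outside the 15 cells. Of the other cells that passed, 80 had Tyrobp or Lyz2 at 1 RPKM or more, and 26 had both. Of those 26, 21 were in the rounded columns. By the numbers in the cell labels, 19 of the 26 lay between 401 and 500, a stretch of 98 passing cells that also held 4 of the 15 macrophage-like cells. The other stretches of 50 numbers held 0 to 2 such cells each. In cell 421, the highest of them by the smaller of both genes, Lyz2 was at 158, Tyrobp at 18.6 and Ctss at 171 RPKM, while C1qb and H2-Aa were at 0. In cell 453 Lyz2 was at 90.3, Tyrobp at 16.0 and Ctss at 111, with C1qb and H2-Aa again at 0. In the macrophage-like cell 423, whose number lies in the same stretch, Tyrobp was at 12994 and C1qb at 3169. The stretch was chosen after the values were seen, and the labels do not say what the numbers stand for.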
